A study of Mus musculus with 12 samples.

Results

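The Igk locus of mouse small pre-B cells was examined by ChIP-seq, in which DNA bound by a protein or carrying a histone mark is precipitated with an antibody and sequenced. Its peaks were taken as every listed peak on chromosome 6 between 67000000 and 71000000 of the mm9 genome build. This gave 96 of the 53092 peaks on assembled chromosomes in all 6 lists together. The window was divided by position alone into a V part (67000000 to 70660000, 60 peaks), a 20 kb part with the J segments, the intronic enhancer and the constant segment Igkc (70660000 to 70680000, 18 peaks), and a downstream part (70680000 to 71000000, 18 peaks). The antibodies recognised BRWD1 and 2 forms of histone H3, namely H3K9Ac (acetyl group on lysine 9) and H3S10pK14Ac (phosphate on serine 10 together with an acetyl group on lysine 14). Each was used on 2 biological replicates, and each replicate has its own list. The cells were sorted from bone marrow as Lin-B220+CD43-IgM- with low forward scatter, and the labels give the strain background of the ChIP-seq samples as C57BL/6 and no genotype for them. The sources used here do not say how many mice went into a replicate. The lists hold no expression values, so the labelled cell type could not be checked against marker genes.

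The kappa light chain is assembled by recombination in small pre-B cells. The Rag1 and Rag2 recombinase joins a V segment, chosen from a long array, to a J segment, and the joined exon is spliced to Igkc, which encodes the constant domain. An enhancer lies in the intron between the J segments and Igkc, and further kappa enhancers lie downstream of Igkc. In the RefSeq gene table of assembly GRCm38.p6, which served for names and gene order only, the array consists of 102 V segments and 60 V segment pseudogenes, followed by 5 J segments and Igkc. The protein-coding genes next after Igkc are Rpia, an enzyme of the pentose phosphate pathway, and Eif2ak3, a kinase of the unfolded protein response. That build differs from the build of the peaks, so peaks were placed by coordinate alone. Within the 20 kb part, all BRWD1 and H3S10pK14Ac peaks lay between 70672386 and 70676851, nearer to the downstream part than to the V part. J side and constant side name the ends of this stretch, towards the V part and towards the downstream part. They give relative order only, and no peak was matched to a segment or an enhancer. H3K9Ac marks active promoters and enhancers. H3S10pK14Ac joins a phosphorylated to an acetylated residue on the same histone tail, and BRWD1 binds modified histones through bromodomains and also has WD repeats.

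The lists differed in length, from 103 peaks for H3S10pK14Ac replicate 1 to 16453 for H3K9Ac replicate 2. H3S10pK14Ac replicate 1 stood apart from the other 5 lists, the next shortest of which held 5814 peaks. Each peak carries the authors' score, which was read as −log10 of the peak's significance from the naming of the lists and the range of the values. Scores were compared only within a list, by rank, where rank 1 is the highest score and tied peaks share the best rank. Lowest scores were between 5.01 and 5.03, and in each list 18.4 to 43.4% of the peaks shared a single score value, so low ranks are coarse. Read depth is unknown. With 2 lists per antibody an exact permutation test could not go below p = 0.333, and no test was made. The values are a description of these 6 libraries.

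All 6 lists had a peak in the 20 kb part around Igkc, and in each list at least a single peak of that part was among the 8 best of the list. BRWD1 replicate 1, H3K9Ac replicate 1 and H3S10pK14Ac replicate 1 had their rank 1 peak there. The best ranks in replicate 2 were 8 for BRWD1, 8 for H3K9Ac and 2 for H3S10pK14Ac. The 20 kb part makes up 0.5% of the window and held 51 to 58.7% of the bases that peaks covered in the window in the 5 larger lists. In H3S10pK14Ac replicate 1 the only peak of the window lay there, and that peak was 12.4% of all bases covered by the list.

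**Figure D1:**
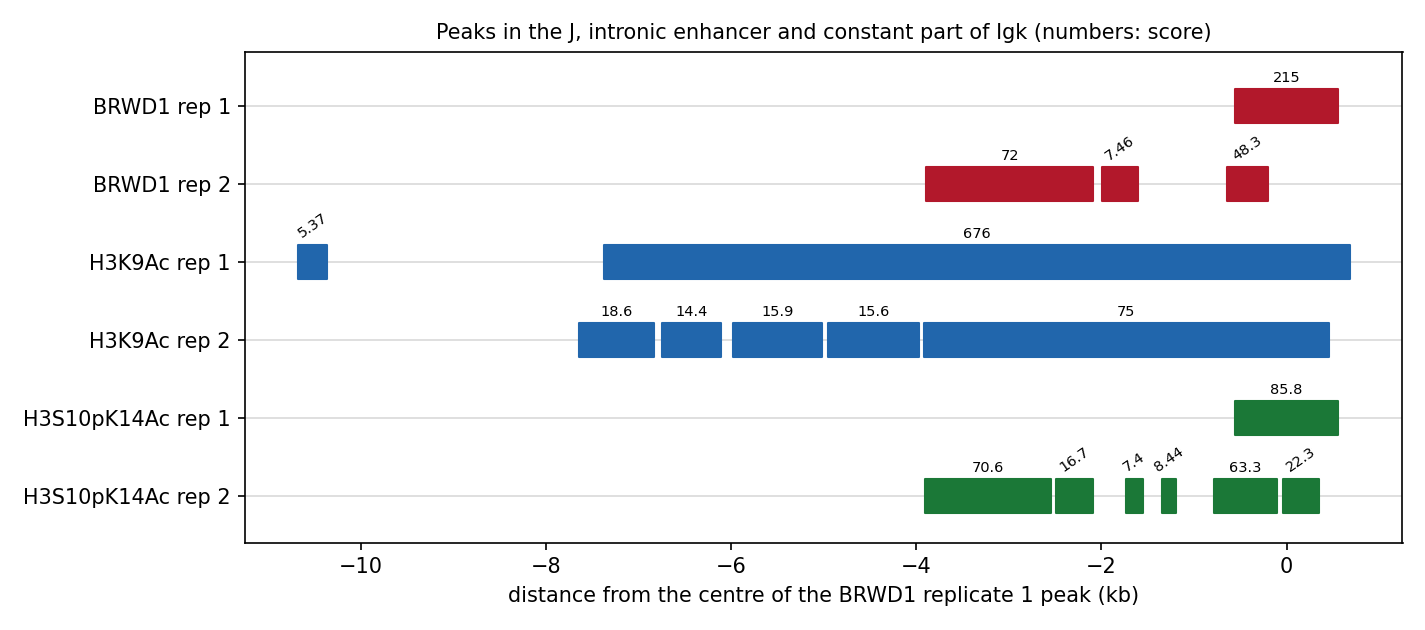
Peaks of the 6 lists (rows) in the 20 kb part, drawn to scale as bars against distance in kb from the centre of the BRWD1 replicate 1 peak, with the score above each bar. H3K9Ac covers about the same stretch in both replicates, whereas BRWD1 and H3S10pK14Ac have bars on the left, J-side stretch in replicate 2 only.

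H3K9Ac formed a continuous domain across the middle of the 20 kb part in both replicates. In replicate 1 it was a single peak of 8054 bp from 70668924 to 70676977 (score 676.0, rank 1 of 10118). In replicate 2 it was a run of 5 peaks from 70668648 to 70676748 that spanned 8101 bp and left gaps of only 328 bp in all. The last and widest of them, 70672379 to 70676748 (4370 bp), scored 75.05 and ranked 8 of 16453. The other 4 scored 18.58, 14.36, 15.92 and 15.58, with ranks from 548 to 1069. This peak with the highest score of the run extended over both the J side and the constant side, so its score cannot be placed on either. Of the bases that replicate 2 covered in the 20 kb part, 96.4% were also covered in replicate 1, and 89.6% of those of replicate 1 were covered in replicate 2. A weak H3K9Ac replicate 1 peak before the domain, 70665613 to 70665928 (score 5.37, rank 7815), overlapped no other list.

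BRWD1 occupied narrower stretches inside this acetylated domain, and its replicates differed there. Replicate 1 had a single peak, 70675735 to 70676851 (1117 bp, score 214.6, rank 1 of 5814). Replicate 2 had 3 peaks. The largest, 70672399 to 70674204 (1806 bp, score 71.97, rank 8 of 9966), lay to the left of the replicate 1 peak and did not touch it. A peak of lower score followed at 70674296 to 70674691 (score 7.46, rank 998, with 89.9% of the list scored lower). The third, 70675648 to 70676090 (score 48.30, rank 17), overlapped the replicate 1 peak by 356 bp. These shared bases were 31.9% of the BRWD1 bases of replicate 1 in the 20 kb part and 13.5% of those of replicate 2. Both BRWD1 lists thus had a constant-side peak, and replicate 2 alone had a J-side peak. All BRWD1 bases of the 20 kb part in both replicates lay within H3K9Ac replicate 1, and 90.8% (BRWD1 replicate 1) and 100% (replicate 2) lay within H3K9Ac replicate 2.

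The J-side BRWD1 peak was the strongest peak of replicate 2 that replicate 1 lacked. Of the 8 highest-scored BRWD1 replicate 2 peaks in the genome, the other 7 overlapped a replicate 1 peak. Among the 9305 replicate 2 peaks without a replicate 1 peak, the J-side peak had the highest score, 71.97, and the next had 24.09. The nearest replicate 1 peak was the constant-side peak, 1530 bp away. This peak was singled out after its values were seen, and the cause of the difference between the replicates was not tested.

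H3S10pK14Ac overlapped most of the BRWD1 bases of the same replicate number, and it too had a J-side peak in replicate 2 only. Replicate 1 had 1 peak, 70675737 to 70676848 (1112 bp, score 85.81, rank 1 of 103), on the constant side. Replicate 2 had 6 peaks with a total of 3165 bp. On the J side these were 70672386 to 70673746 (score 70.57, rank 2 of 10638) and 70673806 to 70674204 (score 16.70, rank 46). Peaks of lower score at 70674556 to 70674737 (score 7.40, rank 1043) and 70674951 to 70675098 (score 8.44, rank 456) bridged the middle. They still scored above 90.2% and 95.7% of the list. On the constant side lay 70675506 to 70676190 (score 63.31, rank 4) and 70676253 to 70676642 (score 22.34, rank 23). As for BRWD1, replicate 1 was limited to the constant side and replicate 2 covered both sides. H3S10pK14Ac replicate 1 listed only 103 peaks, so few regions of any strength could appear in it.

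Some ends of BRWD1 and H3S10pK14Ac peaks at Igk lay very close together, and others did not. In replicate 1 the starts differed by 2 bp and the ends by 3 bp, where the 37 overlapping pairs of these lists in the genome had median differences of 14 and 16 bp. Of these pairs, 2 had starts as close and 1 had ends as close. In replicate 2 the J-side stretch ended at the same base, 70674204, in both antibodies, which 4 of the 554 overlapping pairs of these lists did (0.722%). The J-side stretch of replicate 2 started at 70672386 for H3S10pK14Ac and at 70672399 for BRWD1, and the widest H3K9Ac replicate 2 peak, which runs over both sides, started at 70672379. The difference of 13 bp between BRWD1 and H3S10pK14Ac starts was matched or bettered by 34.5% of overlapping pairs and is not unusual. The J-side BRWD1 peak overlapped 2 H3S10pK14Ac peaks, the close start being that of the first and the shared end that of the second. The end of the first lay 458 bp from the BRWD1 end, and the start of the second 1407 bp from the BRWD1 start. The other ends in replicate 2 were farther apart than the medians of all pairs, which were 30 bp for starts and 29.5 bp for ends. On the constant side the starts differed by 142 bp and the ends by 100 bp, and for the lower-scored pair in the middle by 260 bp and 46 bp. Of the BRWD1 bases of the 20 kb part, 99.6% in replicate 1 lay under H3S10pK14Ac of the same replicate number, and 87.9% in replicate 2 did. In the other direction, 100% of the H3S10pK14Ac bases of replicate 1 and 73.5% of those of replicate 2 lay under BRWD1 of the same number. Of the 6 H3S10pK14Ac replicate 2 peaks, 2, those scored 8.44 and 22.34, met no BRWD1 replicate 2 peak. Between unlike numbers, 75.7% of the BRWD1 replicate 1 bases lay under H3S10pK14Ac replicate 2. Only 13.4% of the BRWD1 replicate 2 bases lay under H3S10pK14Ac replicate 1. The number joins libraries only as a label, and whether close ends come from shared processing or from the cells was not tested.

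The stretch covered by a peak of every list was 354 bp long, from 70675737 to 70676090, on the constant side. Without H3S10pK14Ac replicate 1 it was 356 bp, from 70675735 to 70676090. No base of the J side was covered in all 5 larger lists, because BRWD1 replicate 1 had no peak there.

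Windows with peaks of all lists were rare. Of 128836 windows of 20 kb along the chromosomes, 165 had a peak of all 5 larger lists (0.128%) and 30 had a peak of all 6 (0.0233%), the Igkc window among both. Windows with a peak of a given list made up 4.36% (BRWD1 replicate 1), 7.4% (BRWD1 replicate 2), 5.85% (H3K9Ac replicate 1), 9.86% (H3K9Ac replicate 2), 0.0768% (H3S10pK14Ac replicate 1) and 7.84% (H3S10pK14Ac replicate 2). When overlapping peaks of all lists were joined, the genome had 147 regions with the 5 larger lists. The Igkc region, 8330 bp from 70668648 to 70676977, was the widest of them. By best score it stood at place 1 for BRWD1 replicate 1, 8 for BRWD1 replicate 2, 1 for H3K9Ac replicate 1, 2 for H3K9Ac replicate 2 and 2 for H3S10pK14Ac replicate 2.

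**Figure D2:**
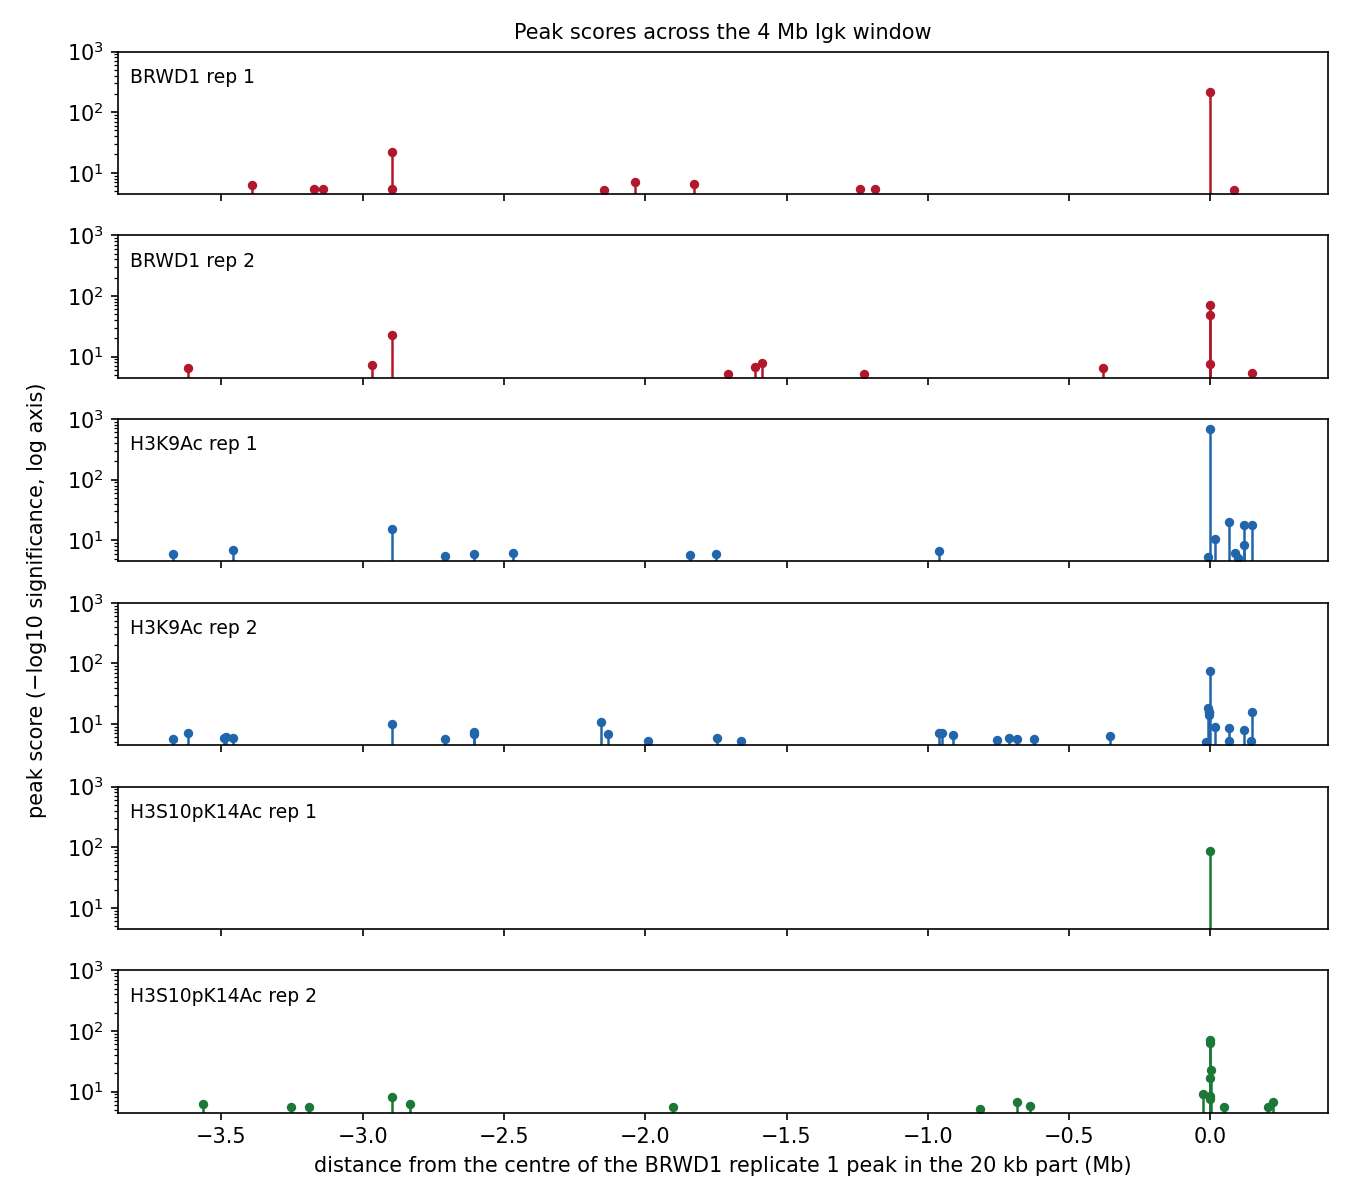
Score of each peak (−log10 significance, log axis) against distance in Mb from the centre of the BRWD1 replicate 1 peak in the 20 kb part, 1 panel per list. Stems at 0 are the peaks around Igkc, and the V part site found in 5 lists is the stem of both BRWD1 panels far to the left that reaches 21.91 and 22.38.

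The V part, in which the V segments lie, makes up 91.5% of the window. It held 1 peak scored 10 or more in each BRWD1 and each H3K9Ac list and none in either H3S10pK14Ac list. For BRWD1 this was 1 of 10 and 1 of 8 peaks, beside 7.72% and 3.96% of the complete lists, and for H3K9Ac 1 of 9 and 1 of 23, beside 24.8% and 14%. For H3S10pK14Ac replicate 2 it was 0 of 10, beside 1.98% of the complete list, and replicate 1 had no V part peak to score. The BRWD1 and H3K9Ac shares rest on 1 peak per list, so no difference between the antibodies is read from them. BRWD1 had 10 and 8 peaks in the V part (replicates 1 and 2), H3K9Ac had 9 and 23, and H3S10pK14Ac had 0 and 10. Most peaks of every complete list scored under 10. Of the 60 V part peaks, 45 scored under 10 and overlapped no peak of another list. The share of the complete lists that met both conditions was not counted, so this number is not read as a trait of the V part. The 45 peaks are given by list. These scored 5.18 to 6.91 in BRWD1 replicate 1 (9 peaks), 5.16 to 7.71 in BRWD1 replicate 2 (6), 5.41 to 6.09 in H3K9Ac replicate 1 (5), 5.02 to 7.05 in H3K9Ac replicate 2 (16) and 5.11 to 9.03 in H3S10pK14Ac replicate 2 (9). The peak at 9.03, 70649411 to 70649636 (rank 370), was the best H3S10pK14Ac peak of the V part and lay near its end towards the 20 kb part.

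A single site in the V part was marked by both BRWD1 replicates. It lay 2884 kb before the first peak of the 20 kb part, at 67780898 to 67781272, and was 375 bp long. BRWD1 replicate 1 had 67781043 to 67781116 there (score 21.91, rank 141) and replicate 2 had 67780956 to 67781209 (score 22.38, rank 83). H3K9Ac had 67780898 to 67781272 (score 15.54, rank 982) and 67781043 to 67781203 (score 9.89, rank 2334). H3S10pK14Ac replicate 2 had 67780971 to 67781198 (score 8.06, rank 501), and replicate 1 had none. Each of these was the best or second-best V part peak of its list. Among the 147 regions with the 5 larger lists the site was ordinary: the median width was 391 bp, and its place by best score was 85, 67, 71, 79 and 104 for BRWD1 replicates 1 and 2, H3K9Ac replicates 1 and 2 and H3S10pK14Ac replicate 2. A weak BRWD1 replicate 1 peak, 67779614 to 67779684 (score 5.37), lay 1358 bp before its BRWD1 peak.

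Other shared sites of the V part scored lower than the site of 5 lists and mostly carried H3K9Ac alone. H3K9Ac of both replicates met at 67216197 to 67216791 (scores 6.98 and 5.90), at 68071117 to 68071674 (6.03, and 7.48 and 6.75 for a pair of replicate 2 peaks) and at 69714543 to 69715000 (6.57 and 7.08). BRWD1 replicate 2 (67057610 to 67057862, score 6.37, rank 2231) met H3K9Ac replicate 2 (67057530 to 67057792, score 7.09, rank 5163) at a further site. The best H3K9Ac replicate 2 peak of the V part, 68520788 to 68521035 (score 10.92, rank 2099), had no peak of another list.

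**Figure D3:**
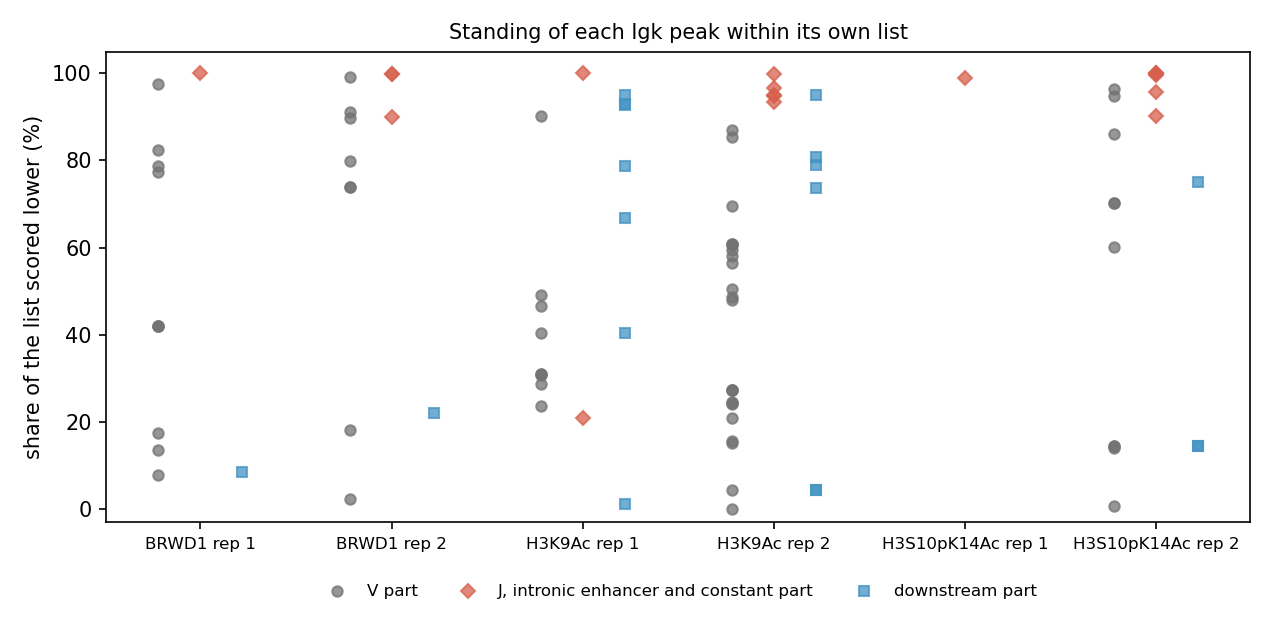
Share of its own list (in percent) that scored lower than each peak of the window, by list, with circles for the V part, diamonds for the 20 kb part and squares for the downstream part. Diamonds sit near the top in every list, except for the H3K9Ac replicate 1 peak scored 5.37, while circles spread over the whole range.

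The downstream part was marked mainly by H3K9Ac. It held 7 and 6 H3K9Ac peaks (replicates 1 and 2), 1 and 1 BRWD1 peaks, and 0 and 3 H3S10pK14Ac peaks. H3K9Ac of both replicates met at 4 sites. After the Igkc domain no list had a peak for 16.34 kb, and the first site then lay at 70693317 to 70693987 (H3K9Ac scores 10.57 and 8.81, ranks 2148 and 3131). The second, 70742288 to 70743033, had the best downstream score of replicate 1, 20.37 (rank 506), and scores of 5.24 and 8.60 in replicate 2. The third, 70795029 to 70796192, scored 17.86 and 7.99 (ranks 710 and 4318). The fourth, 70821421 to 70822956, scored 17.73 and 15.92 (ranks 727 and 817). All 4 sites ranked below the best Igkc peak of each H3K9Ac list, and the score of 15.92 equalled that of a lesser replicate 2 peak in the Igkc domain.

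BRWD1 and H3S10pK14Ac had no peak scored 10 or more downstream. A BRWD1 replicate 2 peak, 70822173 to 70822522 (score 5.39, rank 7722 of 9966), lay inside the fourth H3K9Ac site, and the other 3 sites had no peak of BRWD1 or H3S10pK14Ac in any list. The BRWD1 replicate 1 peak, 70760878 to 70760936 (score 5.25, rank 5101), overlapped no other list. The 3 H3S10pK14Ac replicate 2 peaks lay at 70725308 to 70725464 and 70879980 to 70880125 (both 5.56, rank 4483) and at 70895807 to 70896007 (6.70, rank 1492 of 10638). They overlapped no other list either. Nor did the H3K9Ac replicate 1 peaks at 70763566 to 70763847 (6.09), 70774480 to 70774718 (5.13) and 70793654 to 70794079 (8.35), or the replicate 2 peak at 70820788 to 70820957 (5.24).

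**Figure D4:**
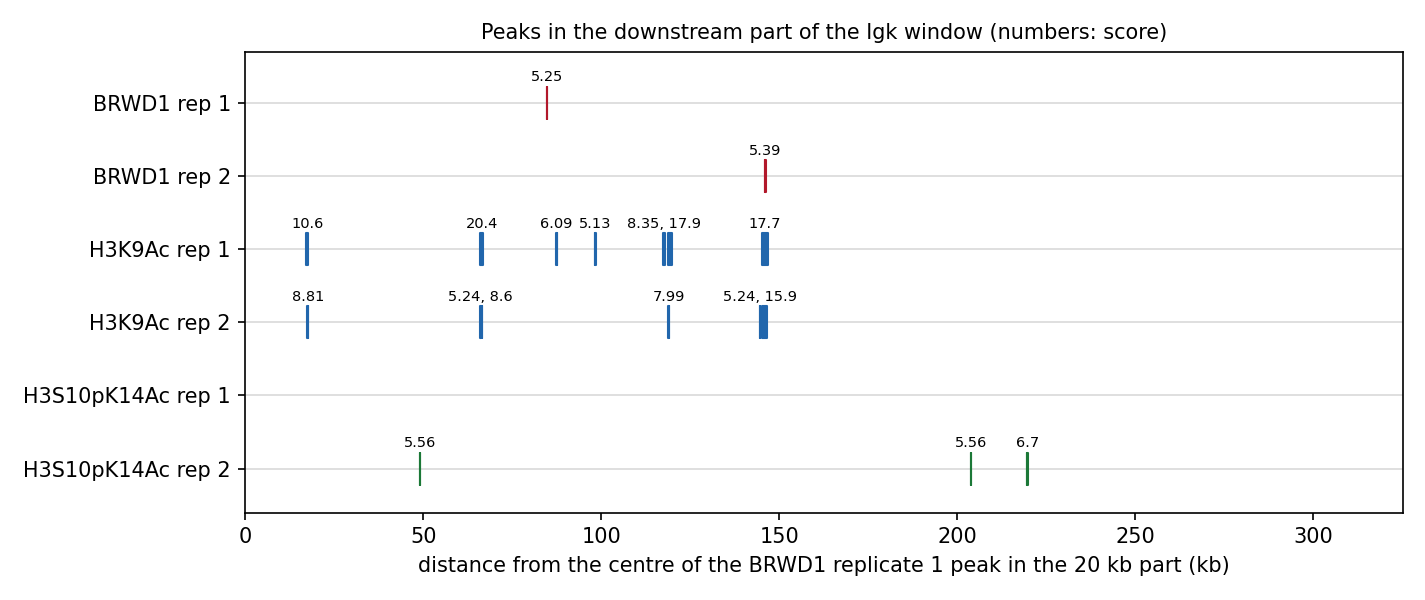
Peaks of the downstream part by list (rows) against distance in kb from the centre of the BRWD1 replicate 1 peak in the 20 kb part; ticks mark peak centres and numbers are scores. The H3K9Ac replicates line up at 4 positions, and the few BRWD1 and H3S10pK14Ac peaks all score below 7.

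By density, H3K9Ac peaks were common downstream and none of the antibodies was concentrated in the V part. H3K9Ac had 21.9 and 18.8 peaks per Mb downstream, against 2.46 and 6.28 in the V part and 3.93 and 6.39 over all chromosomes. BRWD1 had 2.73 and 2.19 peaks per Mb in the V part, against 2.26 and 3.87 over all chromosomes. H3S10pK14Ac replicate 2 had 2.73 in the V part and 4.13 over all chromosomes. Its 9.38 downstream rests on 3 peaks, with ranks 4483, 4483 and 1492 of 10638. In the 4 Mb before the window BRWD1 had 1.75 and 2.50, H3K9Ac 1.25 and 4, and H3S10pK14Ac replicate 2 had 2. In the 4 Mb after it the values were 2.5 and 5, 6.75 and 8.25, and 4.25. The V part densities of the 5 larger lists lay between those of the flanks, except for BRWD1 replicate 1, which was above both, and BRWD1 replicate 2, which was below both.

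**Figure D5:**
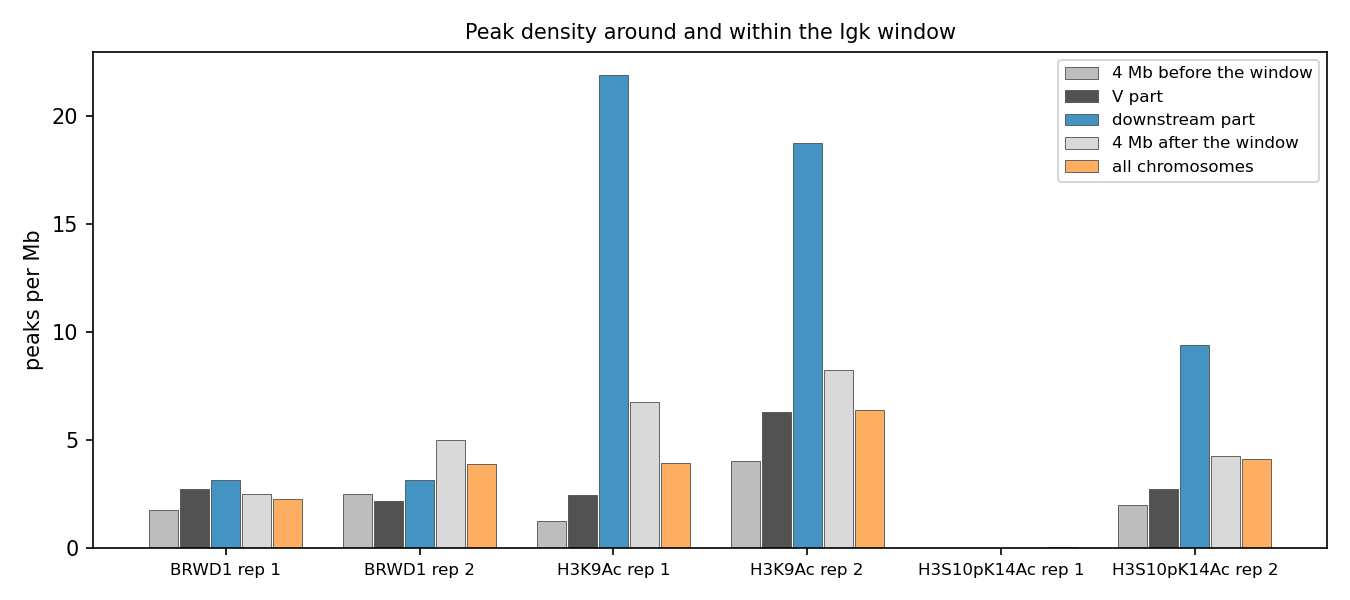
Peaks per Mb by list in the 4 Mb before the window, the V part, the downstream part, the 4 Mb after the window and all chromosomes (bars, 1 value each, no replicates within a list). The downstream H3K9Ac bars of 21.9 and 18.8 are the tallest; the H3S10pK14Ac replicate 1 bars are 0 or too low to see.

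Over the whole window, the members' overlaps with other lists were set beside those of each complete list. For BRWD1, 2 of 12 window peaks overlapped the other replicate in each list, where 11.8% of all replicate 1 and 6.63% of all replicate 2 peaks did. For H3K9Ac the numbers were 9 of 18 and 15 of 34, beside 43.2% and 29.2% of the complete lists. For H3S10pK14Ac they were 1 of 1 and 2 of 19, beside 30.1% and 0.301%. The BRWD1 overlaps rest on the constant-side peak and the V part site alone, and the share of H3K9Ac replicate 1 was near that of its complete list. The 2 H3S10pK14Ac replicate 2 peaks both met the same replicate 1 peak. Likewise, 5 of the 15 H3K9Ac replicate 2 peaks met the single replicate 1 peak around Igkc. These are counts of peaks and not of separate sites.

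Overlap between BRWD1 and the marks in the window came from few places. Of the 12 BRWD1 replicate 1 peaks, 2 overlapped H3K9Ac replicate 1 and the same number overlapped H3K9Ac replicate 2, beside 11.5% and 6.47% of the complete list. Of the 12 BRWD1 replicate 2 peaks, 5 and 6 did, beside 8.72% and 9.65%. With H3S10pK14Ac replicates 1 and 2, 1 and 2 BRWD1 replicate 1 peaks overlapped (0.636% and 5.14% of the complete list), and 1 and 4 BRWD1 replicate 2 peaks did (0.331% and 5.48%). All BRWD1 peaks with H3S10pK14Ac lay in the 20 kb part or at the V part site of 5 lists.

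High scores came from few members, but their share of the window peaks was above that of the complete list in all 6 lists. Scores of 10 or more were held by 2 of 12 and 3 of 12 BRWD1 peaks, beside 7.72% and 3.96% of the complete lists. For H3K9Ac they were held by 6 of 18 and 7 of 34, beside 24.8% and 14%. For H3S10pK14Ac they were held by 1 of 1 and 4 of 19, beside 7.77% and 1.98%. Apart from the H3K9Ac peaks, all members scored 10 or more lay around Igkc or at the V part site of 5 lists.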

How the data were processed

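Of the 12 samples, the 6 ChIP-seq samples with a peak list were used, grouped by antibody as titled. The input (2) and ATAC-seq (4) samples were not analysed here. The submitters' processing notes name genome build mm9 and, as tools, MACS2, Picard, BWA 0.7.5 and Trimmomatic 0.32. The sources used here do not give their settings, control libraries or treatment of reads that map to several places. The authors deposited 1 list per replicate, with a score per peak taken here as −log10 of significance from the naming of the lists and their values; whether p or q was used is not stated. Read depth is unknown. Only chromosomes 1 to 19 and the X and Y chromosomes were kept, and printed starts count from 1. A peak belonged to the part that holds its midpoint, and an overlap of 1 bp or more made peaks shared (Python 3.11.15, NumPy 2.4.6). Windows of 20 kb ran from the first to the last peak of each chromosome. The overlap count was tested on simulated data. The rule for naming peaks took all of the 20 kb and downstream parts, and in the V part those scored 10 or more, shared with another list, or best in their list. The members and these choices were fixed with earlier results of these data known. Alternatives were scores of 10 or more or above the list's median, parts by overlap, part edges moved by 10 kb, sharing at 50% of the shorter peak or within 1 kb, moved windows, and leaving out a replicate. Comparisons of peak ends, unshared peaks and peak numbers were chosen after values were seen. No mm9 genome was used here, so no sequence is printed.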

Additional observations from a re-analysis of the deposited data

How the results depend on the processing

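The counts rest on few peaks, and many of them on the score threshold. Mean peaks per list in the 20 kb part stayed within 1.5 times at scores of 10 or more. They were 1.5 (BRWD1, from 2), 3 (H3K9Ac, from 3.5) and 2.5 (H3S10pK14Ac, from 3.5). At scores of 10 or more, mean peaks per list in the V part were 1 (BRWD1, from 9), 1 (H3K9Ac, from 16) and 0 (H3S10pK14Ac, from 5), and downstream 0 (from 1), 2.5 (from 6.5) and 0 (from 1.5). In the same setting, regions of the window with all 5 larger lists were 1 (from 2), H3K9Ac peaks found in the other replicate 4 (from 12), and BRWD1 peaks with H3K9Ac and with H3S10pK14Ac 2 (from 3.75) and 1.25 (from 2). Windows of 20 kb with the 5 larger lists and with all 6 were 45 (from 165) and 3 (from 30). Above the list's median, the V part had 5, 5.5 and 3 peaks, and downstream BRWD1 had 0 and H3S10pK14Ac 0.5. Leaving out a replicate gave 9 to 23 (H3K9Ac) and 0 to 10 (H3S10pK14Ac) in the V part. In the 20 kb part it gave 1 to 3 (BRWD1), 2 to 5 (H3K9Ac) and 1 to 6 (H3S10pK14Ac), and for H3S10pK14Ac downstream 0 to 3. BRWD1 peaks with H3S10pK14Ac were 1 to 3 without a replicate of the mark. Sharing within 1 kb gave 2.5 H3S10pK14Ac peaks found in the other replicate (from 1.5). Asking for all 6 lists, a choice made after seeing the data, left 1 region. Of 84 alternative values for 18 results, 55 stayed within 1.5 times, among them all those for the 2 regions with BRWD1 of both replicates. No paired analysis was possible because no result comes from a test. Peak lists without depth do not show how far a missing peak fell short of the threshold.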

Other observations

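The V part was also divided by length. In 3 stretches of equal length (1.22 Mb each, from the far end towards Igkc), the lists together had 28, 15 and 17 peaks. BRWD1 had 5, 4 and 1 in replicate 1 and 3, 3 and 2 in replicate 2. H3K9Ac had 6, 2 and 1 in replicate 1, whereas replicate 2 had 9, 5 and 9, so the replicates differed most in the stretch next to the 20 kb part. The complete replicate 2 list is also longer (16453 against 10118 peaks). H3S10pK14Ac had 5, 1 and 4 in replicate 2. No test was made.

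The peak names carry numbers that rise with position in the window in the 5 larger lists, and many numbers are absent from the deposited lists; what the absent numbers stand for is not stated. Between the first and last listed peak of the window, 12 of 185 numbers were listed for BRWD1 replicate 1 and 12 of 145 for replicate 2 (6.49% and 8.28%, beside 5.26% and 6.85% of the complete lists). The shares were 32.7% and 29.8% for H3K9Ac (beside 27.2% and 26.7%) and 26.4% for H3S10pK14Ac replicate 2 (beside 13.7%). Each count starts and stops at a listed peak, which raises the share of a short stretch. No difference from the complete lists is therefore read from these shares. No number was missing between the 6 H3S10pK14Ac replicate 2 peaks around Igkc, nor over the 48665 bp after them. In H3K9Ac replicate 1 none was missing between the Igkc domain and the first downstream site, 16339 bp on, and in replicate 2 a single number was missing there. Between the last V part peak of BRWD1 replicate 1 and its Igkc peak, 57 numbers were missing over 1185846 bp.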
